A study of Mus musculus with 29 samples.

Results

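In a mouse model of experimental metastasis with Braf-mutated melanoma, T cell receptors in brain lesions were compared on day 3 between the full anti-PD-L1 schedule and the MEK inhibitor alone. The comparison holds 8 of the 29 samples of the series, 4 in each treatment, chosen by their titles. The lead-in combination received anti-PD-L1 before treatment and then trametinib together with anti-PD-L1, and the other arm received trametinib without the antibody. Both treatments share the melanoma model, the organ, the day and the MEK inhibitor, and differ in the lead-in and in the concurrent antibody at once, so those parts of the schedule cannot be told apart here. The lead-in combination came from numbers 12 and 14 and trametinib from numbers 8 and 13, each with a part 1 and a part 2. The labels give no strain, age or dose and do not say what a number or a part is. The number was therefore the main unit. Values given over samples, 4 against 4, treat the parts of a number as if they were separate, and p-values measure only the spread between numbers or samples, which may be technical.

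A T cell receptor is a pair of chains, most often alpha (TRA) and beta (TRB), each assembled by joining a V segment to a J segment. The junction forms the CDR3 loop, which varies most between T cells and contacts antigen, so the descendants of a T cell share their CDR3. PD-L1 binds the inhibitory receptor PD-1 on T cells, and antibodies against it release activated T cells from that brake. Trametinib inhibits MEK, a kinase of the MAPK pathway that mutated Braf drives and that T cells also use downstream of their receptor. The question named by the series title is whether an antibody lead-in before the MAPK inhibitor combination is of benefit.

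A clonotype was defined by its chain, its V and J names and the residues of its CDR3, and the values are whole-number counts per clonotype. TRB counts were 6073 and 6238 (number 12, parts 1 and 2) and 7067 and 4148 (number 14) in the lead-in combination, against 527 and 354 in number 8 and 689 and 635 in number 13 (trametinib). TRA counts were 8893, 9389, 8034 and 5192 in the lead-in combination, against 611, 344, 863 and 667 in trametinib, in the same order of numbers and parts. Every lead-in combination sample lay above every trametinib sample on both chains. The mean log2 difference was 3.43 for TRB, or 10.8-fold, and 3.70 for TRA, or 13-fold. Over numbers, 2 against 2, the exact two-sided permutation p was 0.333 for each, and no split of 4 numbers can give a smaller one (Benjamini-Hochberg adjusted p = 0.370, with 10 measures in the family). Over samples, 4 against 4, the exact permutation p was 0.0286, again the smallest possible, with an adjusted p of 0.0571, and those p-values are too small because parts share clonotypes. In the other brain treatments of the series TRB counts ran from 1300 to 3195 (trametinib and anti-PD-L1 without lead-in), from 266 to 5317 (anti-PD-L1 lead-in before any inhibitor) and from 302 to 605 (untreated). Input RNA is not known, and more T cells and more receptor RNA per cell cannot be told apart. The library indices in the labels run in 1 block per treatment, so index and treatment cannot be told apart either.

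As deposited, the larger counts came with more distinct clonotypes and with more counts for each. The lead-in combination held 1055, 1210, 994 and 708 TRB clonotypes, against 204, 140, 237 and 272 in trametinib. Each TRB clonotype had on average 5.16 to 7.11 counts in the lead-in combination and 2.33 to 2.91 counts in trametinib. Clonotypes seen by 1 count made up 29.1% to 36.5% of TRB clonotypes in the lead-in combination and 38.7% to 48.2% in trametinib. Counts per clonotype and single-count shares both change with depth, which differed between the treatments. In 354 drawn TRB counts, the lowest total of the 8 samples, the expected number of clonotypes was 199, 223, 193 and 186 in the lead-in combination and 171, 140, 176 and 199 in trametinib. At equal depth the treatments thus overlapped in richness (log2 difference 0.23, exact permutation p = 0.333 over numbers). The means were 200 clonotypes in the lead-in combination and 171 in trametinib. The same 354 counts were thus spread on average over more clonotypes in the lead-in combination, with fewer counts for each.

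**Figure D1:**
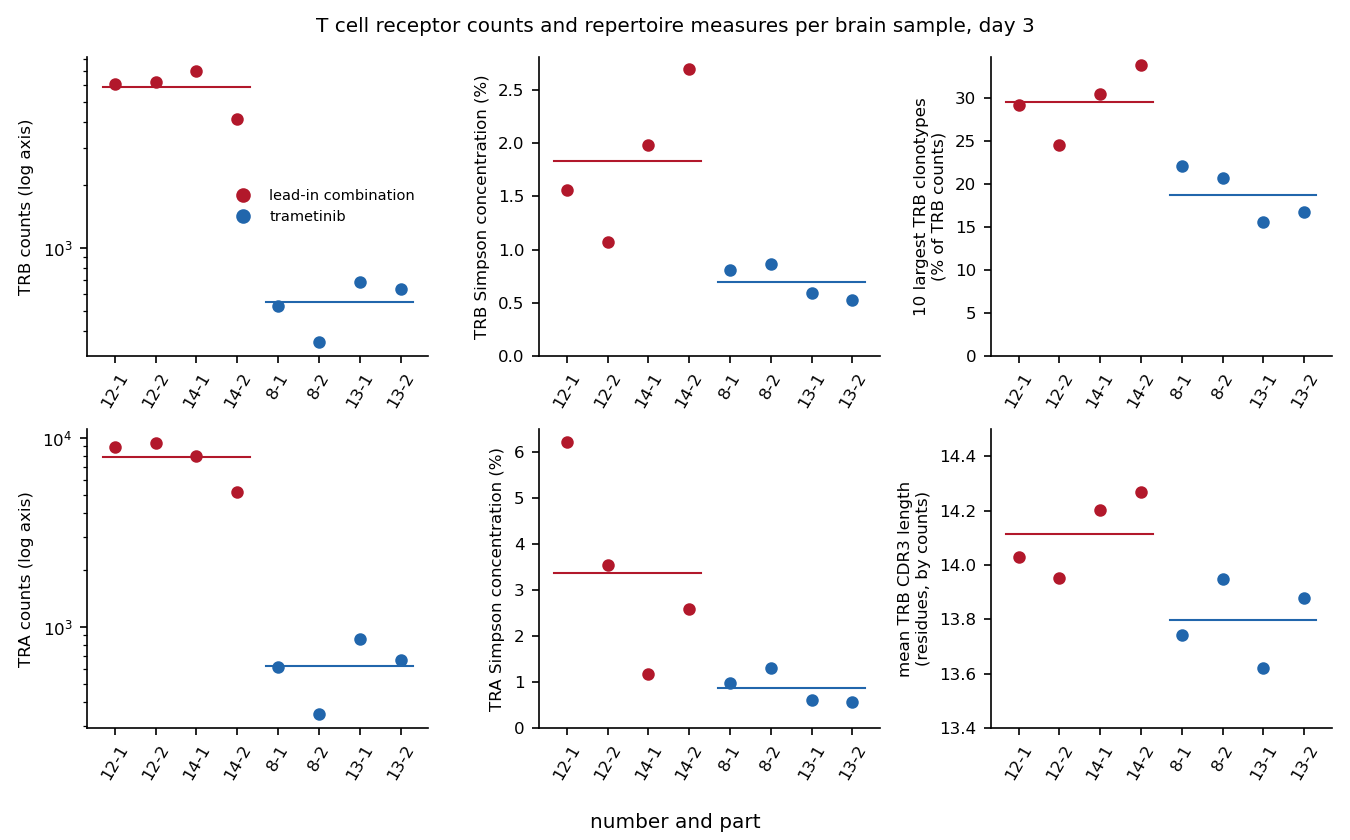
Counts and repertoire measures of the 8 brain samples (x axis: number and part) of the lead-in combination (red, left) and trametinib (blue, right), with 1 point per sample and lines at the means of 4 samples. TRB counts run from 4148 to 7067 in the lead-in combination and from 354 to 689 in trametinib on a log axis, while TRA Simpson concentration overlaps between the treatments; the axis for CDR3 length does not start at 0.

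The head of the beta repertoire was heavier in the lead-in combination. Simpson's concentration is how often randomly drawn pairs of counts fall in 1 clonotype. For TRB it was 1.56%, 1.07%, 1.99% and 2.70% in the lead-in combination, against 0.806%, 0.866%, 0.588% and 0.524% in trametinib. The samples of the treatments did not overlap, and the difference was 1.13 percentage points (exact two-sided permutation p = 0.333 over numbers, adjusted p = 0.370). It rested on both numbers unequally, being 1.65 points without number 12 and 0.618 points without number 14. It also rested on the single largest clonotype of each sample. With that clonotype left out, the values were 0.942%, 0.633%, 0.775% and 0.895% in the lead-in combination and 0.696%, 0.841%, 0.546% and 0.474% in trametinib, a difference of 0.172 points with overlapping samples. TRA concentration was 6.20%, 3.53%, 1.16% and 2.58% in the lead-in combination, against 0.966%, 1.31%, 0.609% and 0.571% in trametinib. These overlapped, through part 1 of number 14, and the difference of 2.51 points became 1.01 without number 12 and 4.0 without number 14.

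The 10 largest TRB clonotypes together held 29.2%, 24.4%, 30.4% and 33.8% of the chain's counts in lead-in combination samples and 22.0%, 20.6%, 15.5% and 16.7% in trametinib. The means were 29.5% ± 3.9 and 18.7% ± 3.1 (SD, n = 4 samples each), and the samples did not overlap (exact permutation p = 0.333 over numbers, adjusted p = 0.370). Depth can set such shares, so every sample was also thinned once to 354 TRB counts. The 10 largest then held 32.8%, 24.0%, 35.3% and 31.9% in the lead-in combination and 21.8%, 20.6%, 18.1% and 18.9% in trametinib. The order did not extend down the ranks. The 50 largest clonotypes held 41.6% to 52.0% as deposited in the lead-in combination and 45.7% to 66.7% in trametinib, and after thinning up to 61.6% in the lead-in combination and up to 66.7% in trametinib, so the treatments overlapped there.

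**Figure D2:**
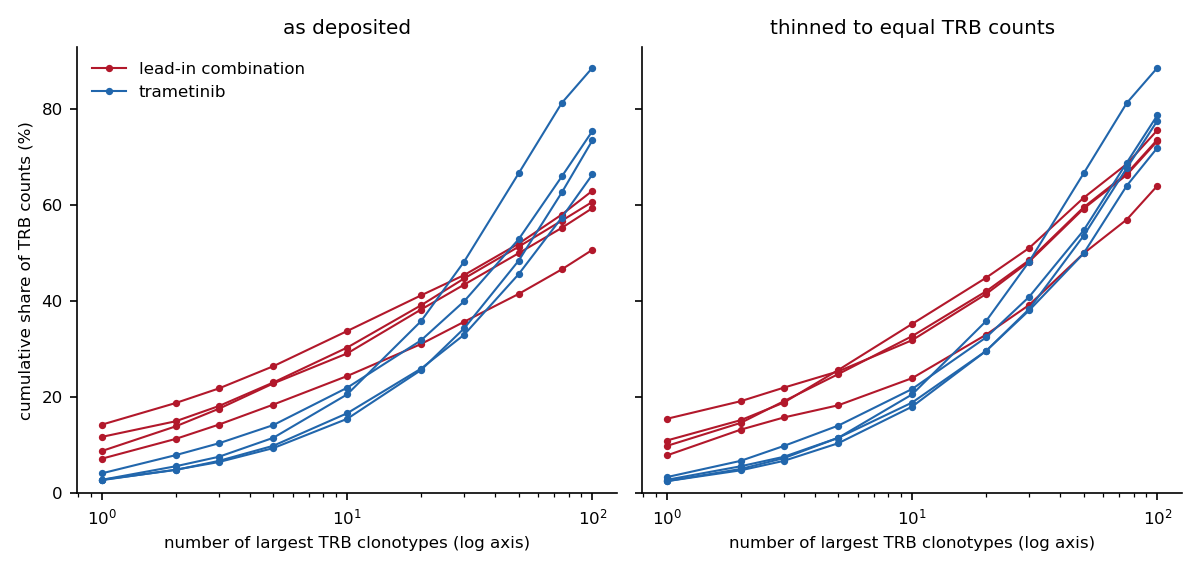
Cumulative share of TRB counts (y axis) held by the largest clonotypes (x axis, log scale) in each sample of the lead-in combination (red) and trametinib (blue), as deposited (left) and after 1 thinning to 354 TRB counts (right). The red lines lie above the blue ones up to 10 clonotypes and cross them at higher ranks.

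The sequences of the largest beta chains are given here because the concentration difference turned on them. They come from the 5 TRB clonotypes with the highest mean share in each number, and the others of those 5 that are described go by segments and length. In number 12 of the lead-in combination they were as follows.
TRBV23 with TRBJ2-7: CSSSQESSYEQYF
TRBV20 with TRBJ2-7: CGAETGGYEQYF
The first held 8.83% and 7.23% of TRB counts in parts 1 and 2, or 536 and 451 counts, and the second 2.22% and 2.98%. A TRBV3 with TRBJ2-3 chain of 15 residues held 5.14% and 4.12%, and a TRBV5 with TRBJ1-4 chain of 15 residues 3.67% and 2.23%.

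In number 14 of the lead-in combination the largest beta chain was a TRBV29 with TRBJ2-1 chain of 16 residues, with 11.8% and 14.3% of TRB counts, or 832 and 594 counts. The next ones were shorter.
TRBV2 with TRBJ2-7: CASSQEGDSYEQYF
TRBV19 with TRBJ2-7: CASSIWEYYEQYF
TRBV26 with TRBJ2-7: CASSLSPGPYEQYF
TRBV5 with TRBJ2-5: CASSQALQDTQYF
They held 3.17% and 3.04%, 1.67% and 4.51%, 3.25% and 1.88%, and 2.69% and 2.17% in parts 1 and 2. Each of these lead-in combination clonotypes was present in both parts of its number, and all of those named from numbers 12 and 14 were at 0 counts in the other 3 of the 4 numbers compared. Because a trametinib sample holds few counts, 0 there allows a share of up to 0.435% (number 13, part 1) to 0.847% (number 8, part 2), which covers counting error only.

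In trametinib the largest beta chain of number 8 was a TRBV17 with TRBJ2-2 chain of 16 residues, with 22 and 6 counts (4.17% and 1.69%). Others among the 5 largest of numbers 8 and 13 were these.
Number 8, TRBV5 with TRBJ1-1: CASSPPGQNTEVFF
Number 8, TRBV15 with TRBJ2-1: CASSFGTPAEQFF
Number 13, TRBV12-1 with TRBJ1-5: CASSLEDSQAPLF
Number 13, TRBV14 with TRBJ2-4: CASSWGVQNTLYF
Number 13, TRBV20 with TRBJ2-4: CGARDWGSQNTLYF
Number 13, TRBV3 with TRBJ2-7: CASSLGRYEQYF
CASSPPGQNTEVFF had 20 counts in part 1 of number 8 and 0 in part 2, and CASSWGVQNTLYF had 0 in part 1 of number 13 and 18 in part 2. A TRBV16 with TRBJ2-5 chain of 14 residues had 3 and 10 counts in number 8. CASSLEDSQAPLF was more even, with 15 and 13 counts in number 13. The largest clonotype of a trametinib sample held 2.76% to 4.17% of TRB counts, against 7.23% to 14.3% in the lead-in combination, and the ranges did not overlap.

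The parts of a number repeated each other closely in the lead-in combination and less so in trametinib. The Morisita-Horn index, which is 100% for identical clonotype shares and 0% for none in common, was 91.5% between the parts of number 12 and 92.0% in number 14, against 15.6% in number 8 and 25.5% in number 13 for TRB. All 10 of the largest TRB clonotypes of each part were found in the other part in numbers 12 and 14, against 2 and 4 in number 8 and 4 and 6 in number 13. Low depth lowers this index. With the unbiased Morisita index the TRB values were 92.6% and 92.8% in the lead-in combination and 19.9% and 32.4% in trametinib. With every sample thinned to 354 TRB counts they were 75.7% and 80.3% against 15.1% and 22.1%. For TRA the Morisita-Horn index was 94.8% and 74.3% in the lead-in combination and 25.3% and 31.3% in trametinib. The treatments were apart under each of these indices, and no test was made because each treatment gives only 2 values.

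**Figure D3:**
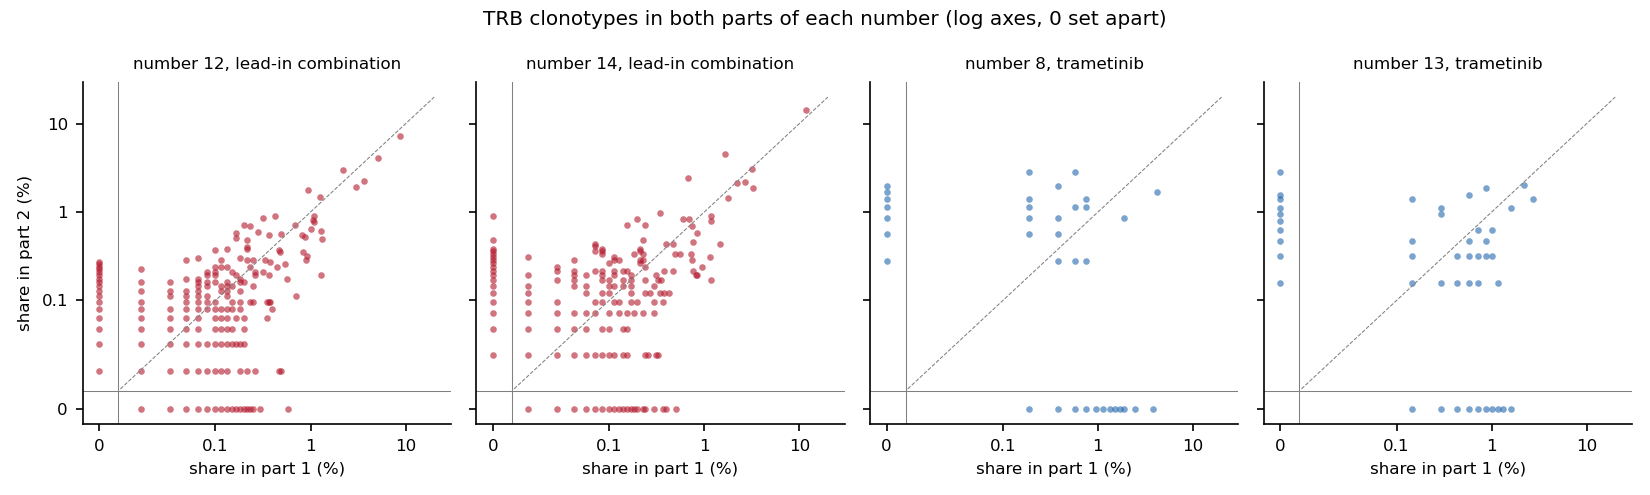
Share of each TRB clonotype in part 1 (x axis) and part 2 (y axis) of the 4 numbers, on log axes with 0 set apart behind the grey lines; lead-in combination (red) left of trametinib (blue). In numbers 12 and 14 the clonotypes of at least 1% in either part lie in both parts, while in numbers 8 and 13 clonotypes of up to 3.8% and 2.83% lie at 0 in the other part.

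Between numbers the beta repertoires had little in common. The TRB Morisita-Horn index lay between 0.166% and 0.662% for the 4 pairs of samples from different numbers in the lead-in combination, between 0.0974% and 0.306% in trametinib, and between 0.0846% and 1.68% across the treatments. Of 3465 TRB clonotypes of the lead-in combination and 793 of trametinib, 30 were found in both, which is 0.866% and 3.78% of each list. Numbers 12 and 14 shared 22 TRB clonotypes, numbers 8 and 13 shared 4, and 0 were in all 4 numbers.

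The TRB clonotypes shared by both numbers of a treatment and holding at least 0.5% in any sample included these.
Lead-in combination, TRBV1 with TRBJ1-1: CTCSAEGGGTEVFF
Lead-in combination, TRBV14 with TRBJ2-1: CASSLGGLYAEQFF
Lead-in combination, TRBV12-1 with TRBJ2-7: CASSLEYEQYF
Lead-in combination, TRBV5 with TRBJ2-7: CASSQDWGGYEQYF
Trametinib, TRBV16 with TRBJ2-4: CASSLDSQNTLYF
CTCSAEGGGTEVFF had 56, 20, 81 and 13 counts in the lead-in combination and 0 in each trametinib sample. Its share of 0.313% to 1.15% lay partly below what 0 counts allow in trametinib. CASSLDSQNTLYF had 2 and 7 counts in number 8 and 1 and 0 in number 13, and it was also in number 14 with 51 and 14 counts. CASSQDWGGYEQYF had 7, 8, 16 and 20 counts in the lead-in combination, against 0, 0, 0 and 5 in trametinib, and those 5 counts of part 2 of number 13 were 0.787% of TRB counts, above its lead-in combination shares of 0.115% to 0.482%. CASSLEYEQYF had 4, 6, 60 and 8 counts in the lead-in combination and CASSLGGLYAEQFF 64, 51, 0 and 2, against 0 in each trametinib sample for both. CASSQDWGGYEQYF and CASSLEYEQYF were each found in 7 of the 10 numbers of the series.

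On the alpha chain, number 12 was led by a single rearrangement. The alpha chains below are shown because they were the largest of number 12 and the 3 largest of number 14.
Number 12, TRAV7D-2 with TRAJ49: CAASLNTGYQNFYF
Number 14, TRAV7D-2 with TRAJ22: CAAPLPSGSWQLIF
Number 14, TRAV16D/DV11V16N with TRAJ30: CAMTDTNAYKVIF
Number 14, TRAV7D-2 with TRAJ43: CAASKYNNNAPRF
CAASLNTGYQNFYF held 2113 and 1650 TRA counts in number 12, or 23.8% and 17.6%. Without it the TRA concentration of number 12 was 0.960% and 0.655%, which is within the trametinib range of 0.571% to 1.31%. The same chain had 0 counts in number 14, in number 8 and in part 1 of number 13, and 5 counts (0.75%) in part 2 of number 13. In the ovary it held 29.0% to 30.8% of TRA counts in number 12 and was at 0 in number 13. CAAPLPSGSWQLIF held 5.48% and 8.24% in number 14, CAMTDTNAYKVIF 7.21% and 6.01%, and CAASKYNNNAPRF 1.73% and 9.57%, each at 0 counts in the other 3 numbers compared.

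Other large alpha chains of trametinib varied in how evenly the parts held them.
Number 8, TRAV7D-2 with TRAJ33: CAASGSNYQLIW
Number 8, TRAV10 with TRAJ22: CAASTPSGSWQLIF
Number 8, TRAV21/DV12 with TRAJ56: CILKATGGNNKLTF
Number 13, TRAV8-1V8D-1 with TRAJ24: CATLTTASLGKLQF
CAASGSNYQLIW had 0 and 16 counts in parts 1 and 2 of number 8, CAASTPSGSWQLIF 11 and 9, and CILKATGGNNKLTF 21 and 3. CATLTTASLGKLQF had 20 and 22 counts in number 13, or 2.32% and 3.3%. Against these, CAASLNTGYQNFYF alone had more TRA counts in each part of number 12 than any trametinib sample had in all.

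Another alpha chain was widely shared. The TRAV7D-2 with TRAJ23 chain below was found in 9 of the 10 numbers of the series. Variants with K or S at the fourth CDR3 residue are shown with it. Over all V names, the K variant had 129 counts in the lead-in combination and 22 in trametinib, and the S variant 278 and 1. Variants with I, M or W there had 3 to 7 counts in the lead-in combination and 0 in trametinib.
Shared chain: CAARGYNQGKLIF
Variant: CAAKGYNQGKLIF
Variant: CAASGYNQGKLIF
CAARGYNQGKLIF held 4.13%, 3.29%, 3.26% and 5.51% of TRA counts in the lead-in combination, against 3.93%, 1.74%, 0.232% and 0.450% in trametinib. The whole family of 13-residue chains with any residue at that position, chosen after its values were seen, held 5.86%, 4.44%, 5.34% and 8.22% in the lead-in combination and 5.40%, 1.74%, 1.39% and 4.35% in trametinib. The treatments overlapped through part 1 of number 8. All of the family's counts carried TRAJ23, but the family's definition fixes the J end of the CDR3, so this is not a separate result. TRAV7D-2 carried 71.3% to 79.4% of the family's counts in the lead-in combination and 16.7% to 100% in trametinib. Of TRA clonotypes, 50 were found in both treatments, 1.37% of those of the lead-in combination and 6.78% of those of trametinib, and 3 were in all 4 numbers.

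V segment usage was tested over all 99 segments with enough counts, with edgeR's quasi-likelihood test, in 1 fit of all 10 brain numbers after adding up the parts of each. Of these, 0 passed an adjusted p of 0.05 (0%), 7 had an unadjusted p under 0.05 (7.07%, 1 higher and 6 lower in the lead-in combination), and the samples of the treatments did not overlap for 13 segments (13.1%, 5 higher and 8 lower). DESeq2 also called 0, with 9 at an unadjusted p under 0.05. The median log2 difference over the 99 segments was -0.20. Shares are given of all counts of the chain.

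The segment of lowest p was TRAV7D-2, the alpha segment of several chains above. It held 34.9%, 27.4%, 17.4% and 28.2% of TRA counts in the lead-in combination, against 17%, 13.7%, 7.07% and 11.1% in trametinib, without overlap (log2 difference 1.10 ± 0.32 SE, edgeR adjusted p = 0.257). The difference changed with the largest clonotypes. TRAV7D-2 was used by 6.94% and 6.70% of the TRA clonotypes of numbers 12 and 14, against 7.91% and 7.74% in numbers 8 and 13. Its log2 difference was 0.52 with the largest clonotype of each number left out (edgeR adjusted p = 0.774), -0.086 with the 3 largest left out (edgeR adjusted p = 0.951) and -0.19 with each clonotype counted once (edgeR adjusted p = 0.944). With 1 number left in the lead-in combination, the difference was 0.82 (without number 12) or 1.34 (without number 14). TRAV7D-2 passed without part 1 of number 8 (edgeR adjusted p = 0.00529).

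TRBV16, a beta segment known in mice for its response to endogenous superantigens, ran the other way. It held 4.63%, 5.23%, 5.6% and 3.62% of the chain's counts in lead-in combination samples, against 7.78%, 19.2%, 10.4% and 7.09% in trametinib (log2 difference -1.11 ± 0.37 SE, edgeR adjusted p = 0.376). It passed without part 1 of number 8 (edgeR adjusted p = 0.0377). The samples did not overlap, and 2 of the 5 largest TRB clonotypes of number 8 used TRBV16. TRBV16 was used by 8.25% and 8.14% of the clonotypes of numbers 12 and 14, against 12.3% and 9.73% in numbers 8 and 13. The 6 tested segments of the list of 7 that respond to endogenous superantigens, TRBV16 among them, had 0 that passed. They had 1 positive and 5 negative log2 differences and a median of -0.59. The median over all tested V segments, alpha and beta together, was -0.20. Together the 7 held 21.4%, 23.1%, 23.3% and 17.4% of the chain's counts in lead-in combination samples, against 34.2%, 34.7%, 31.6% and 24.4% in trametinib. TRBV16 is part of this sum and was without overlap by itself, so the sum is not a separate result. TRBV24, the untested member, averaged 0.0389% in the lead-in combination and was at 0 in trametinib.

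The other frequent beta segments, those with a mean of at least 5% in either treatment, differed less. Of 9 such segments, TRBV16 was the 1 without overlap, against 13 of all 99 tested V segments (13.1%), so this count does not set the frequent segments apart. The other 8 had log2 differences from -0.74 (TRBV17) to 0.65 (TRBV29), all with an edgeR adjusted p of at least 0.788. TRBV19, the most used in trametinib, averaged 9.16% in the lead-in combination and 13% in trametinib, while TRBV3 averaged 10.7% and 7.96% and TRBV29 10.3% and 6.56%, in the same order.

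Of the 10 V segments of lowest p, 2 had positive and 8 negative log2 differences. After TRAV7D-2 and TRBV16 came TRAV6D-5V6N-5, a joined name for sequences not assigned to 1 segment. It held 1.83%, 2.24%, 2.38% and 2.20% in the lead-in combination, against 4.09%, 3.49%, 5.33% and 7.35% in trametinib (log2 difference -1.22, edgeR adjusted p = 0.528). TRAV13N-1 was the second with a positive difference, with 103, 73, 38 and 19 counts in the lead-in combination, against 1, 0, 2 and 0 in trametinib (log2 difference 2.52, edgeR adjusted p = 0.669). TRAV2, TRAV7N-5 and TRAV12-3 had at most 23 counts in any sample. TRAV21/DV12 averaged 0.620% in the lead-in combination and 2.65% in trametinib, and TRAV10 2.66% and 5.67%. Each trametinib average includes a large alpha chain of number 8 named above. Under the alternatives, log2 differences ran from -2.56 to -0.77 for TRAV21/DV12 and from -1.54 to -0.44 for TRAV10. Counted once per clonotype they were -0.77 and -0.62. TRAV21/DV12 is 1 of 24 names in the data that the alpha locus shares with the delta locus, of which 7 could be tested and 0 passed, with 2 positive and 5 negative differences and a median log2 difference of -0.46.

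**Figure D4:**
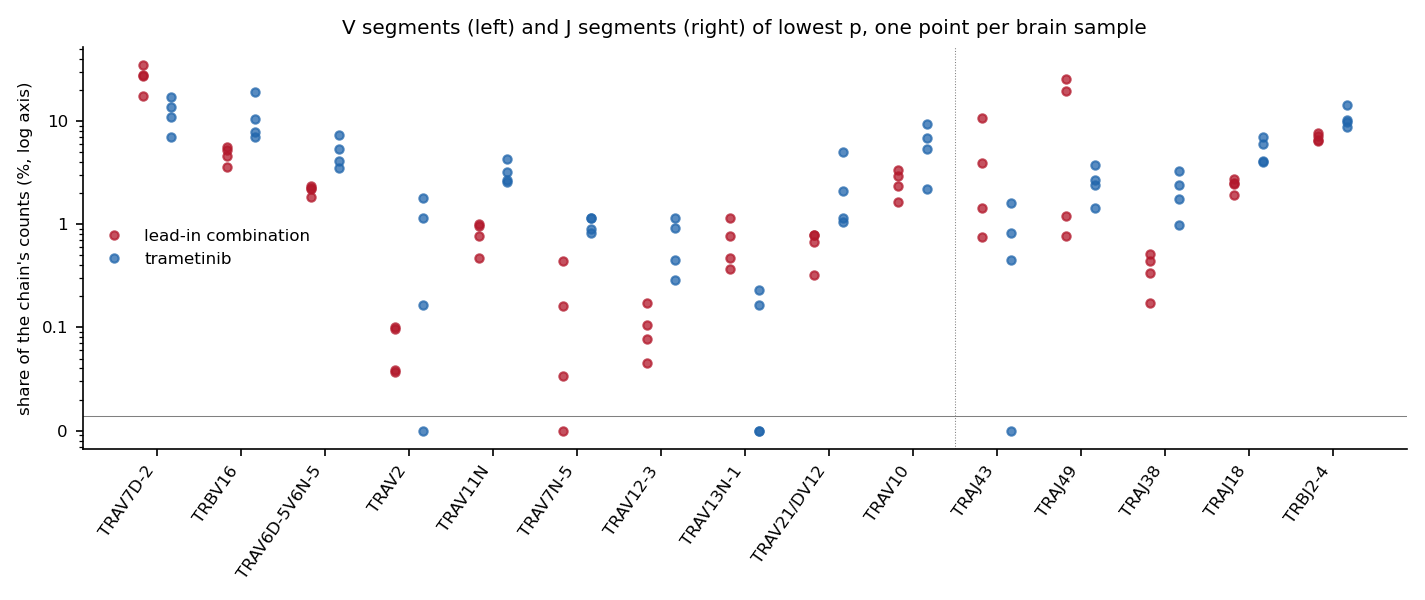
Share of TRB or TRA counts (y axis, log scale, 0 set apart under the grey line) of the 10 V segments and the 5 J segments of lowest p, with 1 point per sample and the lead-in combination (red) left of trametinib (blue). TRAV7D-2 lies higher and TRBV16 lower in the lead-in combination; none of the segments passed the adjusted threshold.

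Among 53 J segments, 0 passed (0%), 4 had an unadjusted p under 0.05 (7.55%, 2 higher and 2 lower) and the samples did not overlap for 4 (7.55%, 1 higher and 3 lower). The median log2 difference was -0.25. Of the 5 J segments of lowest p, the 2 with positive differences were TRAJ49 and TRAJ43, each used by a large alpha chain above. TRAJ22 and TRAJ30, used by the other large alpha chains of number 14 above, were not among the 5. TRAJ49 held 25.6% and 19.8% in number 12 but 1.21% and 0.770% in number 14, against 3.76%, 1.45%, 2.67% and 2.40% in trametinib (log2 difference 2.12 ± 0.84 SE, edgeR adjusted p = 0.443). It was -0.59 with the largest clonotype left out (edgeR adjusted p = 0.948). With 1 number left in the lead-in combination, it was -1.40 (without number 12) or 3.05 (without number 14). TRAJ43 held 0.753%, 1.44%, 3.90% and 10.8% in the lead-in combination and 0.818%, 0%, 1.62% and 0.450% in trametinib. Its log2 difference was 2.20 (edgeR adjusted p = 0.443), 2.97 without number 12 and 0.40 without number 14. TRBJ2-4 held 7.23%, 6.44%, 6.61% and 7.76% of the beta counts in lead-in combination samples and 14.4%, 10.2%, 9.72% and 8.82% in trametinib, without overlap (log2 difference -0.66, edgeR adjusted p = 0.443). Counted once per clonotype its difference was 0.019. TRAJ38 averaged 0.374% in the lead-in combination and 2.03% in trametinib, also without overlap (edgeR adjusted p = 0.443, and 0.0372 with DESeq2).

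Invariant natural killer T cells recognise lipids presented by CD1d and carry a nearly fixed alpha chain of TRAV11 family and TRAJ18 segments. By TRAV11 or TRAV11D with TRAJ18, they held 0.171% ± 0.164 of TRA counts in the lead-in combination and 0.295% ± 0.409 in trametinib (SD, n = 4 samples each), 1 to 21 counts in the 7 samples that had any. Most of the family's TRAJ18 counts were named TRAV11N. With TRAV11N included the shares were 0.810%, 0.458%, 0.809% and 1.31% in the lead-in combination, against 4.42%, 3.20%, 2.67% and 3.60% in trametinib, without overlap. The difference was -2.62 percentage points (exact two-sided permutation p = 0.333 over numbers, and 0.0286 over samples, each the smallest possible). The counts themselves ran the other way, with 72, 43, 65 and 68 in the lead-in combination against 27, 11, 23 and 24 in trametinib. A single TRAV11N with TRAJ18 chain of 15 residues, found in 10 of 10 numbers of the series, made up 64, 25, 54 and 47 of these counts in the lead-in combination and 20, 11, 22 and 18 in trametinib. It was the alpha clonotype with the highest mean share in number 8. The TRAV11N segment was 1 of the 10 V segments of lowest p, of which 0 passed. Its log2 difference was -0.90 without the largest clonotype of each number and chain (edgeR adjusted p = 0.906). That setting left the single chain out of number 8 but not of 12, 13 and 14. Without the 3 largest it was 1.73 (edgeR adjusted p = 0.904), and the single chain was then left out of numbers 8 and 13 but not of 12 and 14.

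The beta segments that pair with this alpha chain (TRBV13-1, TRBV13-2, TRBV13-3, TRBV29 and TRBV1) are also used by many other T cells. Of the 5, 0 passed, with 3 positive and 2 negative log2 differences and a median of 0.50. The median over all tested V segments, alpha and beta together, was -0.20. Together they held 25.1%, 26.8%, 33.8% and 36.4% of the beta counts in lead-in combination samples, against 24.5%, 30.2%, 28.3% and 27.9% in trametinib. Number 14's TRBV29 chain, described above, is part of this sum. Mucosal-associated invariant T cells, which recognise vitamin B metabolites on MR1, carry TRAV1 with TRAJ33. That pair had 0 counts in all 8 samples, which allows up to 0.0320% to 0.0578% of TRA counts in the lead-in combination and up to 0.348% to 0.872% in trametinib.

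**Figure D5:**
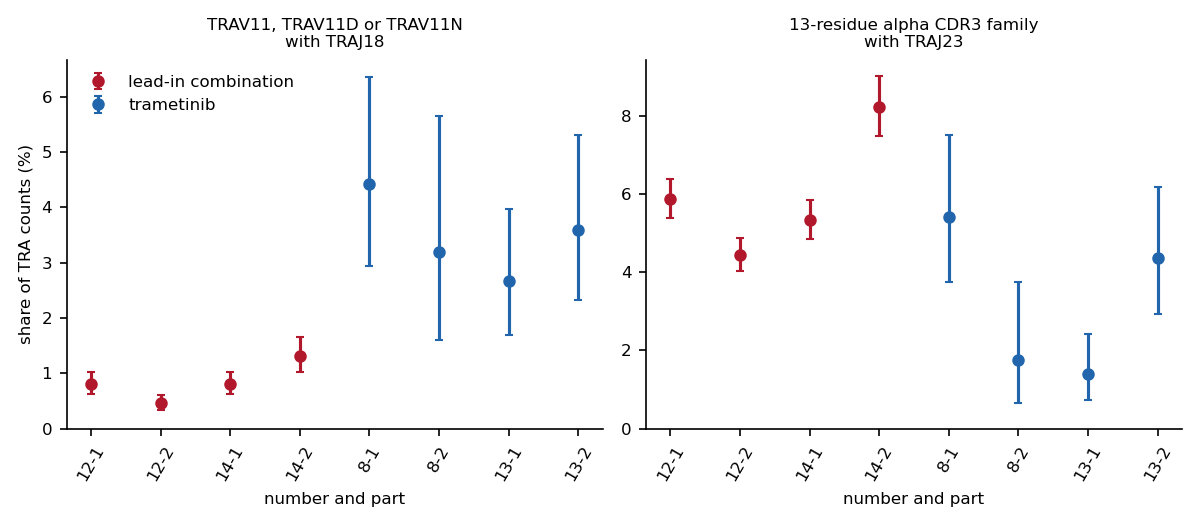
Share of TRA counts (y axis) of TRAV11, TRAV11D or TRAV11N with TRAJ18 (left) and of the 13-residue TRAJ23 chains that differ at the fourth CDR3 residue (right), in the lead-in combination (red, left) and trametinib (blue, right), with exact 95% binomial intervals that cover counting error only. The TRAJ18 shares lie at 0.458% to 1.31% in the lead-in combination and 2.67% to 4.42% in trametinib, while the TRAJ23 shares overlap.

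Beta CDR3s were slightly longer in the lead-in combination when weighted by counts. The mean length was 14.03, 13.95, 14.20 and 14.27 residues in the lead-in combination and 13.74, 13.95, 13.62 and 13.88 residues in trametinib, narrowly without overlap (difference 0.315 residues, exact permutation p = 0.333 over numbers, adjusted p = 0.370). Weighted by clonotypes, the means of 13.97 ± 0.06 in the lead-in combination and 13.86 ± 0.14 in trametinib (SD, n = 4 samples each) overlapped. Of 12 length and residue classes, 0 were without overlap by TRB counts. By TRB clonotypes 2 were, with 12 residues in 8.05% to 10.9% of those of the lead-in combination against 12.1% to 16% in trametinib, and 16 residues in 7.20% to 9.96% against 5.88% to 7.14%. Alpha CDR3s had the same mean length within 0.00232 residues (exact permutation p = 1). Of the same 12 classes for TRA, 1 was without overlap by counts and 0 by clonotypes. That class, alpha CDR3s of 15 residues, held 6.61% to 9.32% of TRA counts in the lead-in combination and 12.8% to 20.4% in trametinib.

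The ovary metastases of numbers 12 and 13 allowed 1 further reading of the brain clonotypes. Clonotypes also seen in the ovary of the same number held 68.0% and 58.3% of the brain TRB counts of number 12 (lead-in combination), against 49.2% and 45.5% in number 13 (trametinib). In the ovary of the other number such clonotypes held 2.68% and 3.49% of number 12's counts and 2.32% and 2.68% of number 13's. With each clonotype counted once, the order of the matched shares was reversed. Of number 12's brain TRB clonotypes 30.1% and 23.8% were in its ovary, against 39.2% and 35.3% of number 13's. For TRA these were 30.8% and 25.9% against 47.1% and 37.6%. Brain depth also differed between the numbers, and its part in these shares was not tested. All 10 of the largest brain TRB clonotypes of each part of number 12 were in its ovary, against 9 of 10 in each part of number 13. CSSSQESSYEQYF held 4.45% to 6.42% of TRB counts in the ovary of number 12. In the ovary, the log2 count of the lead-in combination was above that of trametinib by 0.22 for TRB and by 0.84 for TRA. The ovary TRA concentration was 9.57% to 10.05% in number 12 and 0.760% to 1.06% in number 13. The ovary TRB concentration was 1.97% to 2.30% in number 12 and 0.748% to 0.793% in number 13. With 1 number per treatment in the ovary, no test was possible, and the difference between organs was not tested.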

How the data were processed

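Per the labels' protocols, receptor transcripts in total RNA were sequenced after library preparation with a QIAseq immune repertoire kit. The authors deposited whole-number counts in 1 table, with a row for each rearrangement (V, J and CDR3). The clonotype caller, and whether counts stand for reads or for molecules, are not stated in the labels or headers read here, so intervals and limits cover counting error only. The submitters' processing notes name GRCh38, a human build, for this mouse study, and no coordinates are given. All sample columns were matched to labels.

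Rows with an unresolved CDR3 residue were left out (23 counts, 0.0418%, in the lead-in combination and 1 count, 0.0213%, in trametinib). Of 148 V names in the 8 samples, 62 join several segments and were kept as written. The members and lists were chosen with earlier results of these data known. Measures were averaged over the parts of a number and compared by exact two-sided permutation with Benjamini-Hochberg adjustment over 10 measures. Richness and thinning used 354 TRB and 344 TRA counts, with seed 1. V and J counts, summed over parts, were tested by quasi-likelihood in edgeR 4.0.16, with the log of the chain's total as offset (at least 10 counts in at least 2 of the brain libraries, threshold 0.05) under R 4.3.3. DESeq2 1.42.0 served as a second tool, and standard errors were derived from the F statistic. Other work used Python 3.11.15, numpy 2.4.6, pandas 2.3.3 and scipy 1.17.1. Limits for 0 counts are 3 counts of the total, and intervals are Clopper-Pearson at 95%.

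Named items were the V and J segments past the threshold, the 10 V and 5 J segments of lowest p, TRBV segments with a mean of at least 5%, the marker lists, the 5 largest TRB and TRA clonotypes per number, and TRB clonotypes in both numbers of a treatment with at least 0.5% in any sample, from which CDR3s of up to 14 residues were chosen for printing. The alpha family and TRAJ23 variants were added after their values were seen.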

Additional observations from a re-analysis of the deposited data

How the results depend on the processing

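No paired analysis was possible because no number was shared between the treatments in brain. With 2 numbers per treatment, no permutation test over numbers could pass, so the stability of the measures is read from sizes. Of the 10 measures, 9 kept their direction under every alternative run (each part as a sample, parts summed, single counts left out, CDR3 alone, thinning, richness at the lowest brain depth, the largest clonotype left out, and each part or number left out). The exception was mean TRA CDR3 length, which differed by 0.00232 residues as reported. It was -0.000423 residues without single counts, -0.0167 thinned and -0.0256 without the largest clonotype, and ran from -0.163 to 0.168 with a part or number left out. TRB concentration differences ran from 0.618 to 1.65 points and TRA ones from 1.01 to 4.0 with a part or number left out.

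The count of V segments passing was 1 with no filter on low counts (TRAV7D-2) and 2 with each part as a library (TRAV7D-2 and TRBV16), and 0 to 2 with a part left out. For J segments it was 1 with DESeq2 and chain totals (TRAJ38), and 0 with a part left out. Leaving out a number leaves 1 number in a treatment, so no count is given for those fits. The remaining alternatives gave 0 for both. Log2 differences changed sign for TRAV7D-2 (-0.19 once per clonotype, -0.086 without the 3 largest clonotypes), TRAV11N (1.73) and TRAJ18 (0.22) without the 3 largest, TRAJ49 (-0.033 once per clonotype, -0.59 and -0.51 without the largest and the 3 largest, -1.40 without number 12) and TRBJ2-4 (0.019 once per clonotype). TRAJ49 kept its sign without number 14 (3.05). The cause was not tested beyond what these settings remove. Scaling by TMM gave a median V difference of 0.078, against -0.20 with chain totals, and a median J difference of 0.13, against -0.25.

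Part overlap averaged over the numbers of the lead-in combination was 92.7% by the unbiased index, 78.0% thinned and 80.4% without the largest clonotype for TRB, against 91.8% as reported. For TRA in trametinib it was 34.3% by the unbiased index and 18.1% without the largest clonotype, against 28.3%. These overlap alternatives, and leaving out the 3 largest clonotypes in the segment tests, were chosen after seeing the data. Depth limits the trametinib samples most: a TRB clonotype under 0.435% to 0.847% can be missed there.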

Other observations

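The ratio of TRA to TRB counts was 1.14 to 1.51 in the lead-in combination and 0.972 to 1.25 in trametinib, with overlap. Clonotypes of at least 1% numbered 7 to 13 per sample for TRB in the lead-in combination and 12 to 35 in trametinib, where a few counts reach that share. No measure, named segment or invariant chain had a sample far from the other 3 of its treatment by Dixon's criterion, in 90 groups of 4 examined. The criterion looks at 1 sample at a time and takes parts as separate. It can therefore miss a number whose parts deviate together, as for TRAJ49 in number 12.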
